A study of Mus musculus with 3 samples.

Results

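Of the 543367 chromatin regions compared between both Ets-1 precipitations, 6581 had an olfactory receptor gene as their nearest gene in the deposited annotation, which is 1.21% (95% exact interval 1.18 to 1.24). They were taken as all regions whose nearest gene has a name that starts with Olfr, and 452 of them carry a name that holds the pseudogene mark -ps. The regions belong to 1159 gene identifiers on 18 chromosomes, with 1104 of the 1135 protein-coding Olfr genes of GENCODE M21 among them and 55 of the 272 others. Some compared regions carry no gene name, and whether any of these lie nearest an Olfr gene was not checked. The name says which gene start lies nearest; no expression was measured, and nothing in these files ties a region to the activity of that gene.

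The regions come from ChIP-seq, in which DNA bound to a protein is recovered with an antibody and sequenced, here an Ets-1 antibody. Ets-1 is a transcription factor. The Ad-Ets-1 library is from Min6 cells, insulin-secreting cells of a mouse insulinoma line, after 24 h of an adenovirus for Ets-1 overexpression. The Ad-GFP library is from Min6 cells after the same time with a GFP adenovirus as control, so both precipitations come from infected cells of a tumour line. A library of unprecipitated chromatin, the input, was sequenced too, and the labels do not say which virus its cells received. All cells grew in 25 mM glucose, and all were crosslinked with 1% formaldehyde for 10 min. Each group holds 1 library, so no difference has a replicate check, no p-value is given, and every interval covers counting error only, since reads without molecular tags are not independent molecules.

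Olfactory receptors are G protein-coupled receptors that detect odorants, and they form the largest gene family of the mouse. Their coding sequence lies in a single exon, the genes stand in tandem clusters of similar copies, and each olfactory neuron transcribes a single receptor gene while the rest lie in compact heterochromatin. Outside the nose most of them are silent. Ets-1 binds DNA that holds GGAA, with CCGGAAGT and CAGGAAGT among its preferred words, whereas Lhx2, a homeodomain protein that binds TAATTA, and Ebf proteins act at receptor promoters and enhancers in olfactory neurons. Because the copies are alike, reads in these clusters can fit more than 1 place, and the labels do not state how such reads were handled.

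Simple repeats lay in some of the regions with the most reads, and their sequences are shown before the read numbers of these regions. Whether the reads arise from the repeats was not tested. Shares of all other regions with a dinucleotide repeat are given further below, by number of reads. Of the 23 regions named here for their reads, 7 held a dinucleotide repeat of 10 or more copies and that of Olfr855 held another kind of array. The region with the most reads, a distal region nearest Olfr855 (mm10, chr9:19575249-19575708), holds an unbroken array of 14 copies of GGAAT, in capitals in the plus-strand stretch chr9:19575323-19575622. Each copy holds GGAA, the core of the ETS word, but neither full ETS word occurs there.
Olfr855 region: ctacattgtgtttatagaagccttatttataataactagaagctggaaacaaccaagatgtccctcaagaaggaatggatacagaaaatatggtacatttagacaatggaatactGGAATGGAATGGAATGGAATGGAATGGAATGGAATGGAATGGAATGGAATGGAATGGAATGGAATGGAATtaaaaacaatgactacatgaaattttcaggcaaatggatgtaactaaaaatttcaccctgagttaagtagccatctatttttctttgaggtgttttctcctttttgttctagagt
For comparison, 2 other listed regions with such arrays are shown over 90 bases of the plus strand, with runs of the word on either strand in capitals (mm10, chr17:4626290-4626379 and chr6:132463708-132463797).
Chromosome 17 array: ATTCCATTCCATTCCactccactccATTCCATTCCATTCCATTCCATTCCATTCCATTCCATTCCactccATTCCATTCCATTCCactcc
Chromosome 6 array: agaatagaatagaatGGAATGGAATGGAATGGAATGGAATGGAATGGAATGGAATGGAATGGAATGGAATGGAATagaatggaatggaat
Most of the promoter regions with the most reads hold dinucleotide repeats instead. They are shown over 120 bases of the plus strand with repeats of 8 or more copies in capitals (mm10, chr9:38472509-38472628 for Olfr905, chr2:37139018-37139137 for Olfr364-ps1 and chr9:38774849-38774968 for Olfr921).
Olfr905 region: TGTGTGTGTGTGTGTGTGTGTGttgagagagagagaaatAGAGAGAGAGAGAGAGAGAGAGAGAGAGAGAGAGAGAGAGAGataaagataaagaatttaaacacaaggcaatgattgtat
Olfr364-ps1 region: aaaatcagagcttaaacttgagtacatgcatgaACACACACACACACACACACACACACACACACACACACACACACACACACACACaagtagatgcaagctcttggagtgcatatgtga
Olfr921 region: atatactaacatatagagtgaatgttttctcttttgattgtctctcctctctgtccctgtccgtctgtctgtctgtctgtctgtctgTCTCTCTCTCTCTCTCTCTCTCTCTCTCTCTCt
Searched over their whole width, a single one of the 23 held an ETS word, the distal region nearest Olfr1228 (mm10, chr2:89263251-89264188). The word, in capitals, reads CAGGAAGT on the minus strand within chr2:89263876-89263935. This stretch lies outside the central 200 bp used for the main share of regions with the word.
Olfr1228 region: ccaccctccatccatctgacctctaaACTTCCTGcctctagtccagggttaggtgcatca

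Most of these regions rest on 1 fragment, that is, on a pair of reads. In the Ad-Ets-1 library 3302 of the 6581 regions held 0 reads, 700 held 1, 1959 held 2, 487 held 3 to 4, 126 held 5 to 9 and 7 held 10 or more. In the Ad-GFP library the numbers were 2454 with 0 reads, 885 with 1, 2557 with 2, 563 with 3 to 4, 117 with 5 to 9 and 5 with 10 or more. The input held 0 reads in 6225 regions, 1 in 286, 2 in 67, 3 to 4 in 2 and 10 or more in 1. Regions with 2 or fewer reads thus made up 90.6% in Ad-Ets-1 and 89.6% in Ad-GFP, close to the 91.0% and 89.3% of all other regions. The library totals implied by the deposited values were 1938473 reads for Ad-Ets-1, 1775757 for Ad-GFP and 3937473 for the input, and even counts made up 72.2%, 73.6% and 19.4% of the nonzero values in these regions.

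**Figure D1:**
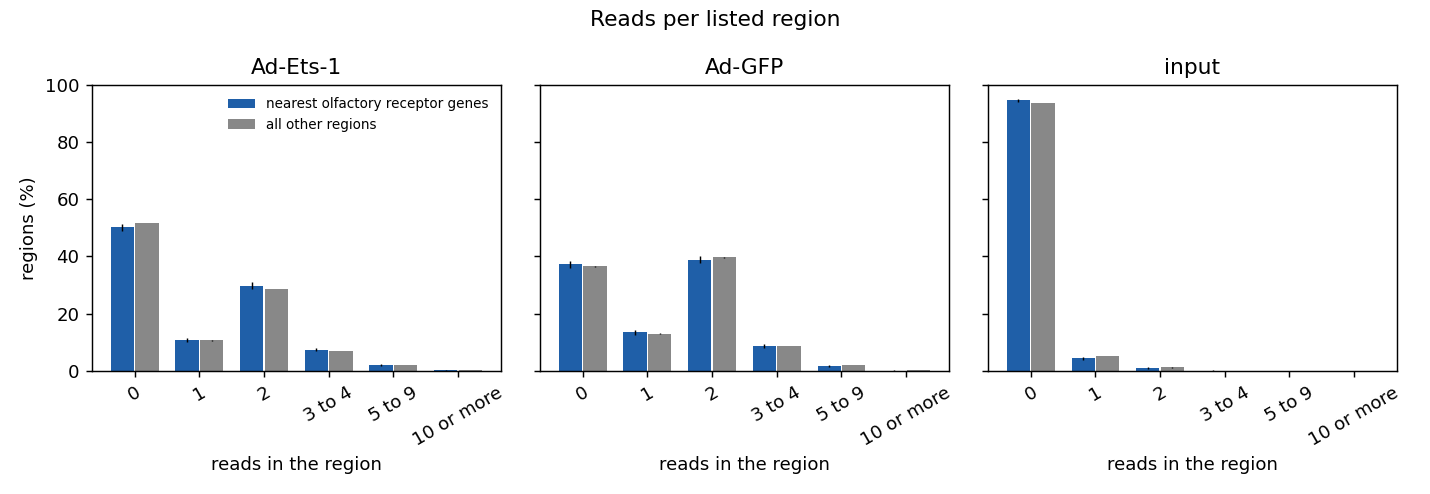
Share of listed regions (%) by number of reads (x axis) in the Ad-Ets-1, Ad-GFP and input libraries, for the 6581 regions nearest olfactory receptor genes (blue) and all other regions (grey); bars show the share and lines its 95% exact interval. Values of 0 and 2 reads dominate both precipitated libraries, and 0 reads dominates the input.

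At least 5 reads in either precipitated library were held by 251 regions, or 3.81% (3.36 to 4.31), against 4.13% of all compared regions. Reads were at least 2 times those of Ad-GFP, with 5 or more reads and a floor of 3 reads in place of lower values, in 28 regions or 0.425% (0.283 to 0.614). Over all compared regions that share was 0.508%. In the opposite direction 93 regions or 1.41% (1.14 to 1.73) held at least 2 times as many in Ad-GFP, against 1.5% of all regions. Against a floor of 3 reads the rule needs 7 reads in Ad-Ets-1 and 6 in Ad-GFP, and counts are mostly even, so the 28 and 93 are not on equal terms. Above the input by the same rule stood 133 regions or 2.02% in Ad-Ets-1 (2.09% of all regions) and 122 or 1.85% in Ad-GFP (2.12% of all). None of these shares set the olfactory receptor regions above the background.

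The sum over all 6581 regions was 7526 reads in Ad-Ets-1, 9108 in Ad-GFP and 537 in the input. Scaled to library totals, Ad-Ets-1 held 0.757 times the reads of Ad-GFP (0.725 to 0.791). Without the Olfr855 region the ratio was 0.750 (0.718 to 0.784), set beside 0.713 (0.709 to 0.716) in all other regions without the 100 regions with the most reads. More regions were listed through the Ad-GFP library, and the same sum in regions with 5 or more reads was 0.965 (0.858 to 1.09), or 0.964 (0.842 to 1.10) without the Olfr855 region. The like value in all other regions without those 100 was 0.929 (0.916 to 0.942). The input ratios were 28.5 (26.0 to 31.2) in Ad-Ets-1 and 37.6 (34.4 to 41.2) in Ad-GFP. Without the Olfr855 region they were 34.4 (31.1 to 38.2) and 45.9 (41.5 to 50.8), above the 27.3 and 38.4 in all other regions without those 100. Values as high were found near the vomeronasal receptor genes, 35.4 and 46.1 for Vmn1r and 38.7 and 51.0 for Vmn2r. The input ratios are thus not particular to olfactory receptor regions. All of them describe regions listed for their reads in the precipitated libraries.

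Of the 6581 regions, 482 were called as peaks in both libraries, 7.32% (6.71 to 7.98), against 6.13% of all compared regions, a value below that interval. A further 2516 (38.2%) were called in Ad-Ets-1 alone and 3583 (54.4%) in Ad-GFP alone, against 37.5% and 56.4% of all compared regions. The share called in both was 6.37% (5.13 to 7.80) near Vmn1r genes and 6.66% (5.50 to 7.98) near Vmn2r genes. Both intervals overlap that of the olfactory receptor regions. The median region called in both held 2 reads in each precipitated library and 0 in the input. Regions called in both, without the Olfr855 region, summed to 1234 reads in Ad-Ets-1, 1091 in Ad-GFP and 10 in the input, a ratio of 1.04 (0.921 to 1.16) of Ad-Ets-1 to Ad-GFP.

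By annotation class, the layout was unlike that of other genes. Promoters, defined in the deposited table as within 2 kb of a start, held 1772 regions or 26.9% (25.9 to 28.0), against 7.45% of all other regions. Distal intergenic regions numbered 3315 (50.4%), 3' UTR regions 572 (8.69%), intron regions 463 (7.04%), downstream regions 396 (6.02%), exon regions 35 (0.532%) and 5' UTR regions 28 (0.425%). All other regions lay in introns in 34.5% and in 3' UTRs in 1.31%. The vomeronasal receptor families, which also stand in clusters, lay between: Vmn1r genes, with a single coding exon like olfactory receptors, had 20.1% of 1366 regions at promoters, and Vmn2r genes, with several coding exons, 8.31% of 1637. Of the 1772 promoter regions, 1378 lay within 1 kb of the start and 394 between 1 and 2 kb.

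**Figure D2:**
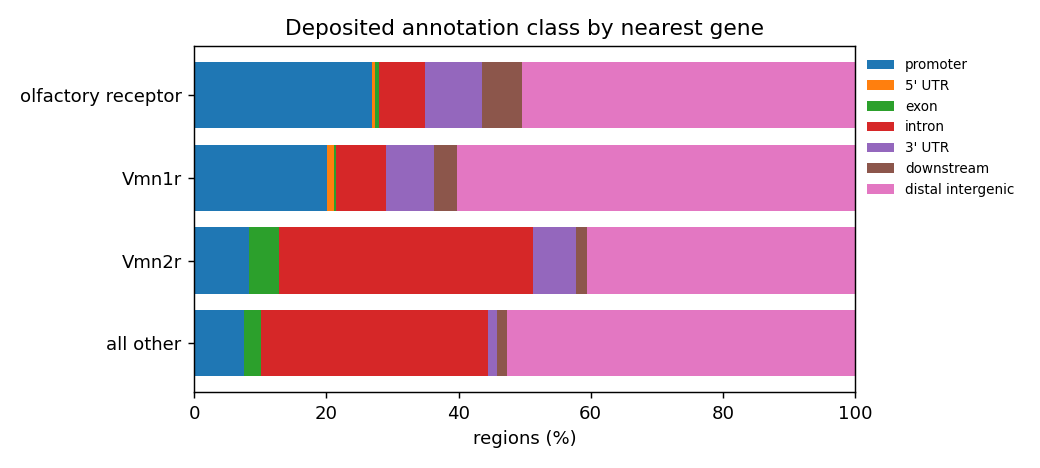
Share of listed regions (%) in each deposited annotation class for regions nearest olfactory receptor, Vmn1r and Vmn2r genes and all other regions. Promoters (left, blue) hold 26.9% of olfactory receptor regions and 7.45% of all other regions.

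Within the receptor clusters, 23.5% of bases lie within 2 kb of an Olfr start, and 24.8% (23.9 to 25.7) of the listed region centres, 2351 in number, lay there. The 2 kb upstream of starts held 277 regions per Mb (256 to 298), receptor introns 281 (264 to 297), receptor exons 302 (285 to 320) and other bases of the clusters 270 (264 to 277). The higher value in exons came from regions called in Ad-GFP: regions called there numbered 127 per Mb in Ad-Ets-1 and 194 in Ad-GFP, against 126 and 164 in the other cluster bases. Whether reads shared among receptor copies add to the exon value was not tested.

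Around the starts of all 1407 Olfr genes, protein coding or not, no peak of regions stood next to the start. The lowest 1 kb step, between 1 and 2 kb upstream, held 251 regions per Mb (225 to 278). Whether these annotated starts are transcription starts was not tested. The step just upstream held 288 regions per Mb (260 to 317) and the step just downstream 296 (268 to 325), within a range of 251 to 313 over 10 kb on either side. Reads in these regions were 303 per Mb in Ad-Ets-1 and 358 in Ad-GFP just upstream, and 280 and 429 just downstream. Around the starts of 20803 other protein-coding genes Ad-Ets-1 reads had a peak, with 278 per Mb just upstream and 322 just downstream. They were 165 between 1 and 2 kb upstream, and 189 and 196 at the outer steps, 9 to 10 kb upstream and downstream. Ad-GFP reads were 255 and 266 next to the start and 214 between 1 and 2 kb upstream, but 248 and 259 at the outer steps. Regions per Mb were 166 and 172 next to the start, 141 between 1 and 2 kb upstream, and 169 and 176 at the outer steps. Like Ad-Ets-1 reads, input reads around these genes rose, to 28.0 and 31.7 per Mb next to the start against 15.8 between 1 and 2 kb upstream. At Olfr starts input reads were 12.1 and 18.5 per Mb. The 100 regions with the most reads and the Olfr855 region were left out of both profiles.

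**Figure D3:**
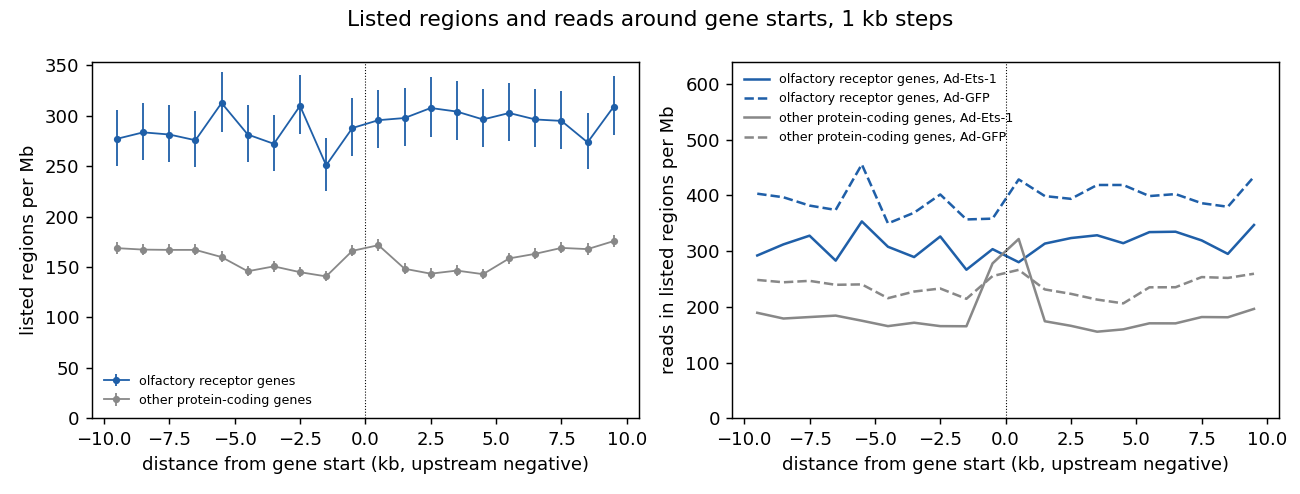
Listed regions per Mb (left, with 95% exact Poisson intervals) and reads in them per Mb (right; solid, Ad-Ets-1; dashed, Ad-GFP) in 1 kb steps around the starts of 1407 olfactory receptor genes (blue) and 20803 other protein-coding genes (grey). The blue lines run without a peak at 0 kb, whereas the solid grey line reaches 322 reads per Mb just downstream of the start.

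Reads per promoter were low. A promoter region called in Ad-Ets-1 was listed for 570 Olfr genes and one called in Ad-GFP for 732, with 402 genes in both groups and 900 in either. These gene counts were not made for other genes, so they have no background. Of the receptor promoter regions, 7.45% were called in both libraries and 36.1% in Ad-Ets-1 alone, against 6.58% and 37.1% of all other promoter regions. Promoter regions of 5 or more reads numbered 66 of 1772, or 3.72%, against 6.35% of all other promoter regions. Promoter regions summed to 1870 reads in Ad-Ets-1, 2454 in Ad-GFP and 109 in the input, a ratio of Ad-Ets-1 to Ad-GFP of 0.698 (0.640 to 0.761). Other promoters, without the 100 regions with the most reads, had a ratio of 0.762 (0.749 to 0.775). Distal receptor regions without the Olfr855 region had a ratio of 0.784 (0.737 to 0.835), against 0.724 (0.719 to 0.729) in other distal regions. The ratio was 0.689 (0.592 to 0.802) in 3' UTR regions, 0.774 (0.651 to 0.916) in introns and 0.785 (0.654 to 0.940) downstream. These class ratios have overlapping intervals within the receptor regions.

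The distal region nearest Olfr855 held 288 reads in Ad-Ets-1, 272 in Ad-GFP and 110 in the input, 3.83%, 2.99% and 20.5% of all reads in olfactory receptor regions. Its deposited distance to the start is -6909 bp, upstream being negative. Its ratio of Ad-Ets-1 to Ad-GFP was 0.970 (0.762 to 1.24), and it stood 5.32 times (4.12 to 6.88) above the input in Ad-Ets-1 and 5.48 times (4.23 to 7.12) in Ad-GFP. It is the only receptor region with 10 or more input reads, against 169 regions of the whole table. In the authors' deposited table its peak had a fold enrichment of 2.35 and a −log10 q of 0.739 in Ad-Ets-1, and 3.08 and 2.82 in Ad-GFP.

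The array printed for Olfr855 was shared by regions elsewhere in the genome, a feature looked for after the data were seen. At least 5 tandem GGAAT copies were found in 25 compared regions, with 6 to 15 copies, and that of Olfr855 is the only 1 of the 25 nearest an Olfr gene. Together the 25 held 2629 reads in Ad-Ets-1, 2743 in Ad-GFP and 1452 in the input, with medians of 59, 71 and 31. Input reads of 10 or more were found in 19 of the 25. The chromosome 17 array printed above (region chr17:4626109-4626599) held 593, 580 and 318 reads in the Ad-Ets-1, Ad-GFP and input libraries, and the chromosome 6 array (region chr6:132463544-132463981) held 221, 240 and 136. Without the Olfr855 region the arrays stood 3.54 times (3.27 to 3.84) above the input in Ad-Ets-1 and 4.08 times (3.78 to 4.42) in Ad-GFP.

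After Olfr855, no receptor region held more than 16 reads in any library. The distal region nearest Olfr594 (chr7:103227113-103227593) held 16 reads in Ad-Ets-1, 4 in Ad-GFP and 0 in the input, a ratio of 3.66 with an interval of 0.731 to 35.4. The distal region nearest Olfr1107 held 9, 10 and 2 reads in that order of libraries, and that of Olfr166 held 7, 6 and 0. Those of Olfr1342 and Olfr118 held fewer reads in Ad-Ets-1: Olfr1342 held 3 reads in Ad-Ets-1, 10 in Ad-GFP and 0 in the input, a ratio of 0.275 (0.0349 to 2.24), and Olfr118 held 4, 8 and 0, a ratio of 0.458 (0.0414 to 3.20). The Olfr1228 region with the ETS word held 8 reads in Ad-Ets-1, 4 in Ad-GFP and 0 in the input, a ratio of 1.83 (0.263 to 20.3). The interval of each of these ratios holds 1.

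Among regions with 0 reads in the other precipitated library, a promoter region held the most reads in each direction. Olfr905, whose region covers the start (chr9:38472315-38472808), held 0 reads in Ad-Ets-1, 14 in Ad-GFP and 0 in the input, or 0.196 times Ad-GFP with a floor of 3 reads for Ad-Ets-1. The Olfr364-ps1 region (chr2:37138825-37139725), also over a start, held 12 reads in Ad-Ets-1 and 0 in Ad-GFP and in the input, or 3.66 times an Ad-GFP floor of 3 reads. Olfr921 (chr9:38774720-38774968) held 10 reads in Ad-Ets-1, 1 in Ad-GFP and 2 in the input, with a ratio of 9.16 and an interval of 0.513 to 217. Olfr1052 and Olfr1099 each held 8 reads in Ad-Ets-1, 2 in Ad-GFP and 0 in the input. Each of these counts comes from 1 library, and 4 of these 5 promoters, those of Olfr905, Olfr364-ps1, Olfr921 and Olfr1099, hold the kind of repeat printed above.

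Other regions were high in a single precipitated library. With 0 reads in the Ad-GFP library, the regions of Olfr312 and Olfr1451 held 10 reads each in Ad-Ets-1, that of Olfr974 held 9 and that of Olfr741 held 8. With 0 reads in the Ad-Ets-1 library, the Olfr836 region held 10 reads in Ad-GFP and the regions of Olfr248, Olfr815 and the Olfr122 promoter 8 each. All 8 held 0 reads in the input. The 3' UTR region of Olfr129 held 11 reads in Ad-Ets-1, 1 in Ad-GFP and 0 in the input, a ratio of 10.1 (0.667 to 253). Next to Olfr855 in input reads stood the distal regions of Olfr1510, with 7 reads in Ad-Ets-1, 2 in Ad-GFP and 4 in the input, and of Olfr957, with 2, 4 and 3.

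Dinucleotide repeats of 10 or more copies were more frequent in receptor regions with more reads, a feature also looked for after the data were seen. They occurred in 1.99% (1.64 to 2.41) of 5314 regions whose higher precipitated count was 1 to 2 reads, in 4.92% (3.67 to 6.44) of 1016 with 3 to 4, in 14.2% (10.0 to 19.2) of 240 with 5 to 9, and in 4 of 10 with 10 or more, without the Olfr855 region. Per kb of region the number with a repeat was 0.0799, 0.127, 0.274 and 0.601, so the order was the same per length. All other regions without the 100 with the most reads showed the same order, at 3.22%, 6.49%, 14.8% and 29.5%. For these read classes the ETS word was searched in the central 200 bp alone, whereas the repeats were searched over whole regions. In that window it showed no such order in the receptor regions, at 0.979% (0.732 to 1.28), 0.492% (0.160 to 1.14), 1.25% (0.259 to 3.61) and 0 of 10. The class with 5 to 9 reads held the word in 3 of 240 regions, so the upper classes are too small to show an order. Which part of the read numbers goes with the repeats was not tested.

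By the authors' deposited tables, few receptor peaks passed a q of 0.05. In Ad-Ets-1 35 of 3003 peaks nearest Olfr genes did, or 1.17% (0.813 to 1.62), against 1.38% of all peaks in that list, and 11 of the 35 lay at promoters. In Ad-GFP 32 of 4071 did, or 0.786% (0.538 to 1.11), against 0.827% of all peaks, and 6 of the 32 lay at promoters. The leading Ad-Ets-1 peaks in the authors' deposited table were a distal peak of Olfr514 and a promoter peak of Olfr430, each with a fold enrichment of 4.60 and a −log10 q of 2.87. A promoter peak of Olfr270 followed, with 4.51 and 2.44. The leading Ad-GFP peaks in the authors' deposited table were the Olfr905 promoter, with a fold of 5.47 and a −log10 q of 4.16, and peaks of Olfr836, Olfr1234 and Olfr1100, each with 4.68 and 3.17.

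By chromosome, 1709 regions (26.0%) lay on chromosome 2, 1249 (19.0%) on chromosome 7, 845 (12.8%) on chromosome 9 and 471 (7.16%) on chromosome 19. The remaining chromosomes held between 6 regions, on chromosome 5, and 391, on chromosome 10. Joined wherever neighbours lie within 1 Mb, Olfr genes formed 31 clusters of 5 or more genes, with 1354 genes over 34.5 Mb, and 96.8% of the receptor regions belonged to their genes. All listed regions together stood at 275 per Mb inside the clusters and 204 outside, and 26 of the 31 clusters lay above the outside value.

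The 17 clusters of 20 or more genes held 5575 receptor regions. The largest, 287 genes on chromosome 2 (chr2:85330779-90403897), held 1261 regions with 1385 reads in Ad-Ets-1, 1727 in Ad-GFP and 70 in the input, a ratio of 0.735 (0.664 to 0.813) of Ad-Ets-1 to Ad-GFP. The cluster of 156 genes on chromosome 7 (chr7:102476579-105369355) held 543 regions with 582, 707 and 37 reads in that order, a ratio of 0.754 (0.643 to 0.882). The cluster of 123 genes on chromosome 9 (chr9:37708964-40190134), home of Olfr905, Olfr921 and Olfr974, held 524 regions with 583, 717 and 42 reads, a ratio of 0.745 (0.636 to 0.872). These 3 ratios differ by less than their intervals.

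Most differences in the ratio between clusters were not resolved at these read numbers. Over all 17 the ratio ran between 0.633 and 1.01 with a median of 0.763, and the interval of 16 of them held the value over all receptor regions, 0.757. These clusters hold most of the regions behind 0.757, and many intervals are wide, so this cannot show that the clusters have like ratios. The cluster of 46 genes on chromosome 2 (chr2:111230360-112167997) had the highest ratio, 1.01 (0.788 to 1.30), from 277 reads in Ad-Ets-1 and 252 in Ad-GFP, and its interval is the one that leaves out 0.757. The cluster of 25 genes on chromosome 7 had the lowest, 0.633 (0.445 to 0.894), from 116 and 168 reads, and that of 44 genes on chromosome 11 had 0.648 (0.497 to 0.837), from 206 and 291. The cluster of 49 genes on chromosome 9, which holds Olfr855, had 645 reads in Ad-Ets-1, 675 in Ad-GFP and 130 in the input, and a ratio of 0.875 (0.749 to 1.02), or 0.811 (0.660 to 0.998) without that region.

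The clusters of 91 genes on chromosome 19, 80 on chromosome 7, 67 on chromosome 10, 58 on chromosome 17, 37 on chromosome 14 and 37 on chromosome 2 had ratios of 0.726, 0.778, 0.763, 0.832, 0.819 and 0.832. Those of 32 genes on chromosome 16, 28 on chromosome 6, 26 on chromosome 1 and 26 on chromosome 11 had 0.698, 0.796, 0.747 and 0.842. Promoter shares of the 17 ran between 17.4% and 47.2%. The cluster of 26 genes on chromosome 11 had the highest promoter share together with the highest GC content, 46.7%, and the lowest density, 179 regions per Mb, the only 1 of the 17 below the density outside clusters. The densest of the 17 was that of 91 genes on chromosome 19, with 326 regions per Mb.

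**Figure D4:**
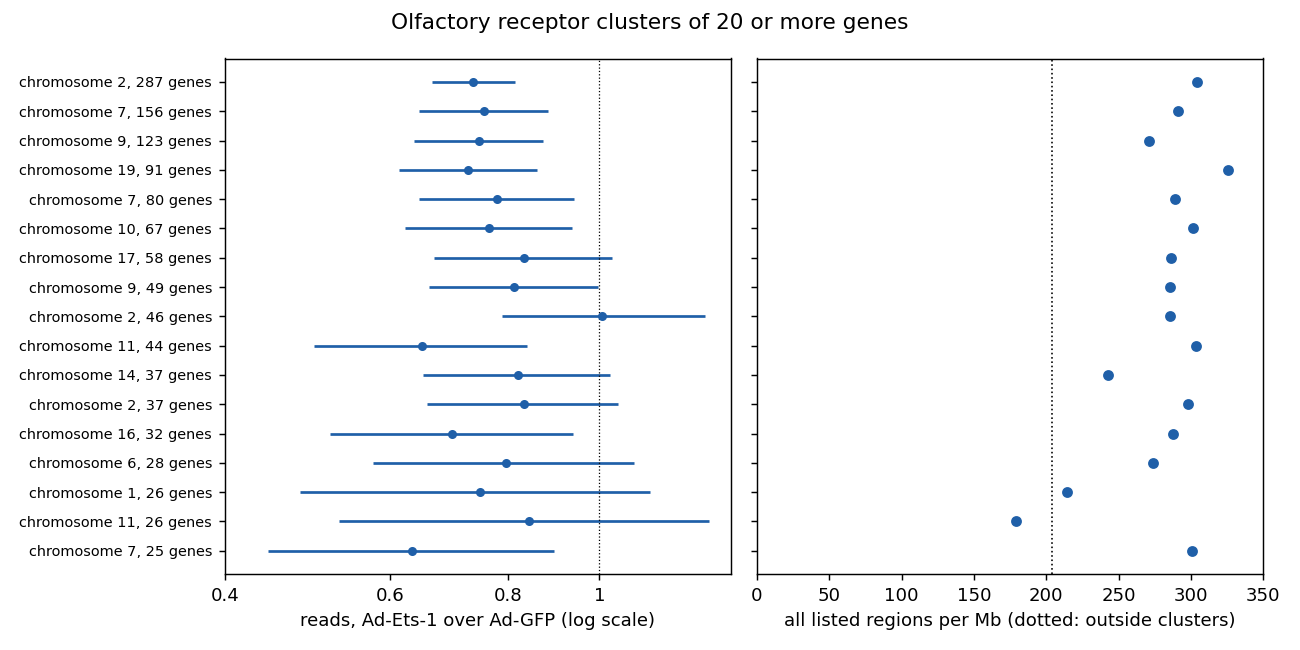
Ratio of scaled reads, Ad-Ets-1 over Ad-GFP, with 95% exact intervals on a log axis (left; the Olfr855 region left out) and all listed regions per Mb (right; dotted line, 204 per Mb outside clusters) in the 17 clusters of 20 or more olfactory receptor genes. Of the 17 ratios 16 lie below 1, as does the 0.713 of all other regions without the 100 with the most reads. The intervals of 7 of the 17 hold 1. Of the densities 16 lie above the dotted line.

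Density went with base composition across the genome. In 2464 windows of 1 Mb without receptor cluster, the number of listed regions fell with GC content (Pearson r = -0.684, Spearman rho = -0.711 across windows, which share the same libraries and are not replicates). The 29 windows that lie at least 50% inside a receptor cluster held a median of 279 regions (range 135 to 368) at a median GC of 39.7%, against a median of 211 at a GC of 41.5% in the others. The 904 other windows between 37.8% and 41.6% GC, the middle range of the receptor windows, had a median of 232 with quartiles of 206 and 263. The 15 receptor windows in that same GC range had a median of 282 (range 187 to 368), and 11 of the 15 lay above that upper quartile. Of all 29 receptor windows 24 lay above the median of all other windows. The part of the difference that base composition accounts for was not tested further, and how well reads can be placed in these windows was not measured.

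**Figure D5:**
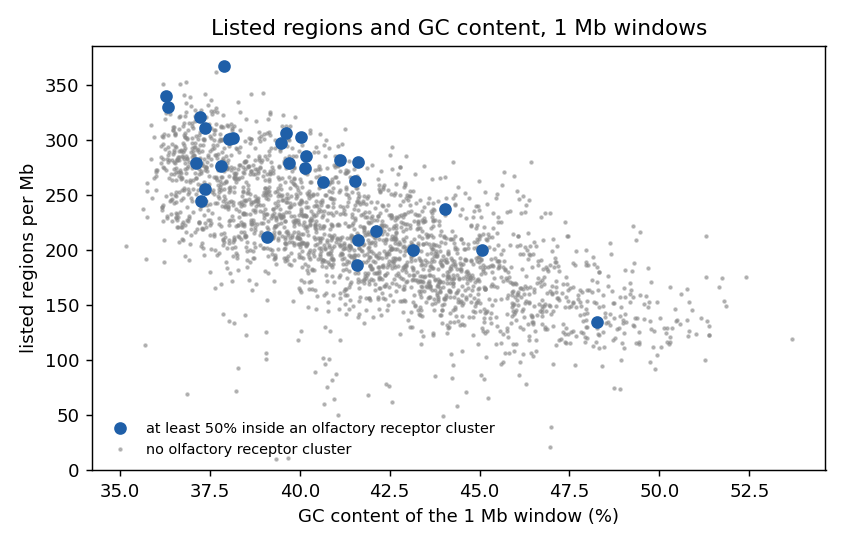
Listed regions per Mb against GC content (%) in windows of 1 Mb, for 29 windows at least 50% inside an olfactory receptor cluster (blue) and 2464 windows without one (grey). Of the 29 receptor windows 24 lie above the median of all other windows, 211, and 5 at or below it.

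The regions were richer in AT and in bases masked as repeats than all other regions, as were those of the vomeronasal families. Dinucleotide repeats of 10 or more copies were less frequent, in 2.95% (2.55 to 3.39) of regions against 4.22% of all other regions. Their share was 2.27% near Vmn1r and 2.57% near Vmn2r genes. The median GC content of the olfactory receptor regions was 37.2% (37.0 to 37.4), against 40.3% in all other regions. A median of 37.8% of their bases was masked as repeats, against 24.8%. Regions nearest Vmn1r genes had 38.2% GC and 53.8% masked, and those nearest Vmn2r genes 36.5% and 50.8%. The ETS words CCGGAAGT and CAGGAAGT, searched on both strands of the central 200 bp, occurred in 60 regions or 0.912% (0.696 to 1.17), against 1.36% of all other regions, 0.952% near Vmn1r and 0.490% near Vmn2r genes. CAGGAAGT made up 56 of the 60. The bare core GGAA occurred in 87.8% and in 87.5% of all other regions, and TAATTA, the word Lhx2 binds, in 9.06% (8.37 to 9.78) against 7.69%. What part of these word shares goes with base composition was not tested.

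The promoters of the receptors showed the same composition. RefSeq (GRCm38.p6) gave 948 entries for Olfr promoters, from 250 bases before to 50 after the annotated start. Of the Olfr genes with a listed region, 905 were matched to one. The 50 bases after the start in the Olfr1341 entry printed below begin with ATG, the start codon. How many Olfr entries begin at a coding start was not tested, so the shares below may compare unlike positions with those of other genes. An ETS word occurred in 12 of the 948, 1.27% (0.656 to 2.20), all CAGGAAGT, against 7.07% of 32851 promoters of all genes. CCGGAAGT occurred in 0 of 948 (upper limit 0.388%) and in 3.89% of all. TAATTA occurred in 18.6% (16.1 to 21.2), against 5.29%, and median GC content was 35.0% against 52.7%. Of the 12 genes, Olfr1341 and Olfr1532-ps1 had the most reads in promoter regions, with 2 reads in Ad-Ets-1 and 4 in Ad-GFP for Olfr1341 and 4 and 2 for Olfr1532-ps1. The promoter of Olfr1341 is printed with the word, CAGGAAGT on the minus strand, in capitals (plus strand, chr4:118709159-118709458).
Olfr1341 promoter: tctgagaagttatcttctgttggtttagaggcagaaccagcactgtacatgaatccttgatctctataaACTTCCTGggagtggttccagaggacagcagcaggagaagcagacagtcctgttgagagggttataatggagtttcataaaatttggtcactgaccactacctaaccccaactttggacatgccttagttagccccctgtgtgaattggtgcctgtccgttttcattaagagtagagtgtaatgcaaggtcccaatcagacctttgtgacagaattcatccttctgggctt

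Receptors that have been described outside the nose, taken whatever they showed, had few reads. Olfr15, a medium-chain fatty acid receptor described in β-cells, had 10 listed regions, none at a promoter, and the highest was distal with 6 reads in Ad-Ets-1 and 0 in Ad-GFP and in the input. Olfr78, a short-chain fatty acid receptor of the carotid body and kidney, had 5 regions: a distal region held 5 reads in Ad-Ets-1 and 0 in Ad-GFP, and a 3' UTR region held 0 and 5. Olfr16, a sperm receptor, had 5 regions with at most 3 reads, and Olfr109, described in islets, had 6 with at most 2, promoter regions among them. Olfr1386 had 3 regions with at most 2 reads, and no region was listed for Olfr544, an azelaic acid receptor described in glucagon-secreting cells.

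The genes with the most listed regions had few reads in each. Olfr275 had 33 regions, the farthest 101 kb away and 0 at its promoter, with 32 reads in Ad-Ets-1, 57 in Ad-GFP and 1 in the input. Olfr1505 had 29 with 51, 20 and 4 reads in that order, and Olfr1402 had 26 with 27, 40 and 1. No region of these 3 genes held more than 6 reads in a library. Over all genes with a region the median was 5 regions, and 89 genes had 1.

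Genes that act with olfactory receptors had a promoter share near that of all other regions. All 24 genes of olfactory signalling and receptor choice had a listed region, 10 of them at a promoter, with 17 of 282 regions at promoters (6.03%). Their regions held 287 reads in Ad-Ets-1, 332 in Ad-GFP and 17 in the input. Of the 282 regions, 5 (1.77%) held 5 or more reads in either precipitated library, against 4.13% of all compared regions. The genes with the most reads were Ebf1, a transcription factor, with 51 reads in Ad-Ets-1 and 61 in Ad-GFP over 54 regions, and Gnal, the olfactory G protein subunit, with 47 and 52 over 42. Ano2, a chloride channel of olfactory cilia, had 12 and 37 over 25 regions, and Ric8b, an exchange factor for Gnal, had 19 and 23 over 17.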

How the data were processed

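Ets-1 ChIP-seq of Min6 cells was analysed from a comparison table of regions and a peak list for each precipitated library. The submitters' processing notes name build mm10, BWA 0.7.12, MACS2 2.1.0, Trimmomatic and FastQC; their settings, and how reads that fit several places were treated, are not stated there. Per the file headers, the comparison table as deposited gives each library's count of reads, an RPM value, a ratio of RPM and the log2 of that ratio. The deposited peak lists give, per the file headers, a score, a fold enrichment, −log10 of the q-value and −log10 of the p-value. Values in a peak list describe that peak and were compared within a list alone.

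Members were all regions whose nearest gene name starts with Olfr, and annotation classes, nearest genes and distances are the authors'. Library totals were recovered from counts and RPM (every region within 1%). Ratios are summed reads scaled to these totals, with exact conditional binomial intervals on fragments of 2 reads for the precipitated libraries and on single reads for the input; shares have Clopper-Pearson and densities exact Poisson intervals at the 95% level. Counts of 0 (in the 2-fold rule, counts under 3) were set to a floor of 3 reads. Clusters were joined from GENCODE M21 Olfr genes at gaps of at most 1 Mb; 99.95% of the 2087 transcripts named for the members have the same coordinates there. Sequences were read from the mm10 genome, and promoters from RefSeq (GRCm38.p6). With 1 library per group no test across samples could be run.

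Members, gene lists and clusters were chosen with earlier results of these data known. Regions named are the 10 with the most precipitated reads, the 5 such promoter regions, the 5 highest in each library with 0 in the other and the 3 highest in the input; 6 receptors, the 3 genes with the most regions, 24 signalling genes and clusters of 20 or more genes were given whatever they showed. GGAAT arrays and dinucleotide repeats were added after seeing the data. Scripts were tested on simulated data. Tools were samtools 1.23.1 and Python 3.11.15 with scipy 1.17.1, numpy 2.4.6, matplotlib 3.10.9, pandas 2.3.3 and pysam 0.24.0.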

Additional observations from a re-analysis of the deposited data

How the results depend on the processing

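Of 32 alternative values, 12 stayed within the interval of the value reported (for counts, within 1.5 times it) and 20 moved; the cause was not tested. With only regions of 5 or more reads, the olfactory receptor share of regions was 1.12%, the share called in both libraries 20.3% (17.0% in all other regions), the ratio of Ad-Ets-1 to Ad-GFP 0.965, the input ratios 14.6 in Ad-Ets-1 and 15.1 in Ad-GFP, the share with an ETS word 1.20% and the median GC 36.8%. The receptor share was 1.38% within 100 kb of a start and 1.13% without -ps names, and the promoter share 20.9% within 1 kb. Without the Olfr855 region the input ratios were 34.4 and 45.9, and with totals that leave out the 100 regions with the most reads 32.0 and 42.2. The ETS word share was 1.46% over whole regions and 87.8% for GGAA alone. In place of a q of at most 0.05, a fold of at least 5 was passed by 0 receptor peaks in Ad-Ets-1 and 1 in Ad-GFP, and a −log10 q of at least 5 by 0 in both lists. With gaps of 0.5 and 2 Mb there were 34 and 29 clusters. No paired analysis was possible because no group has more than 1 library. Most regions rest on 1 fragment, so most differences at single genes were not detectable at this depth, and the placing of reads among alike receptor copies was not tested.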
